A study of Mus musculus with 2 samples.

Results

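The clustered protocadherin region of mouse chromosome 18 was examined in a chromatin immunoprecipitation (ChIP-seq) study of PHF19, one of the Polycomb-like accessory proteins of the repressive complex PRC2. All deposited PHF19 peaks that overlap 37.0 to 38.05 Mb of chromosome 18 (mm8 build) were taken, which gave 20 of the 3445 peaks in the list. The cells were the mouse embryonic stem cell line E14, grown on gelatin in LIF-containing medium. DNA pulled down by a custom rabbit polyclonal antibody against PHF19 (the ChIP library) was set against input DNA, for which the labels give no antibody. Both groups held 1 library of the same line, with no added treatment named, and no library controlled for the specificity of the antibody. The window was chosen by its number of PHF19 peaks, and the peaks themselves were selected on ChIP enrichment, so both are described here without a test. No expression data were at hand to check the cell type, and an mm8 annotation was not used here. The name of the window therefore rests on general knowledge of the region, and no peak was assigned to a gene.

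The clustered protocadherins are cell-surface adhesion proteins of the cadherin superfamily, best known for giving single neurons distinct surface identities. Their genes lie in 3 neighbouring arrays. In the Pcdha and Pcdhg arrays a series of large variable exons, each with its own promoter, is spliced to a shared set of constant exons, while the Pcdhb genes each stand alone without shared exons. Which promoters are active differs from neuron to neuron. In the RefSeq gene table of the GRCm38.p6 assembly, used only for names and order, the arrays follow one another without mixing as Pcdha (14 genes, Pcdha1 to Pcdhac2), Pcdhb (22 genes, Pcdhb1 to Pcdhb22) and Pcdhg (22 genes, Pcdhga1 to Pcdhgc5). Of these 58 genes 57 are listed as protein coding.

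The ChIP library held 21957101 and the input 24496988 distinct reads, counting 1 read per position and strand. A bin of 5 kb on chromosome 18 held a median of 45 input reads. Enrichment is given as a fold, the fraction of the ChIP library found in a region over the same fraction of the input, and its interval is an exact 95% conditional binomial interval. Intervals cover counting error only, and amplified reads are not independent molecules, so they may be too narrow. With 1 library per group there is no replicate error, and the tests set the reads of 1 library or region against another rather than comparing conditions.

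The 20 peaks formed small, separate islands rather than a continuous domain. Together they covered 31.2 kb, or 2.97% of the window, and had 1336 reads in the ChIP and 469 in the input, giving a fold of 3.18 (2.86 to 3.54). The lowest fold was 2.11, the median 3.33 and the highest 4.74. All 20 had a fold of at least 2, as did 98.6% of the whole list. At a fold of at least 3 there were 15 peaks, where the list had 73%, and at a fold of at least 4 there were 3, where the list had 40.6%. The median of all other peaks was 3.68. Every one of the 20 intervals lay above 1, which is no test because the peaks were selected on ChIP enrichment. Of these intervals 19 included the pooled fold, itself taken from the same peaks, so most differences between single peaks were within counting error.

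**Figure D1:**
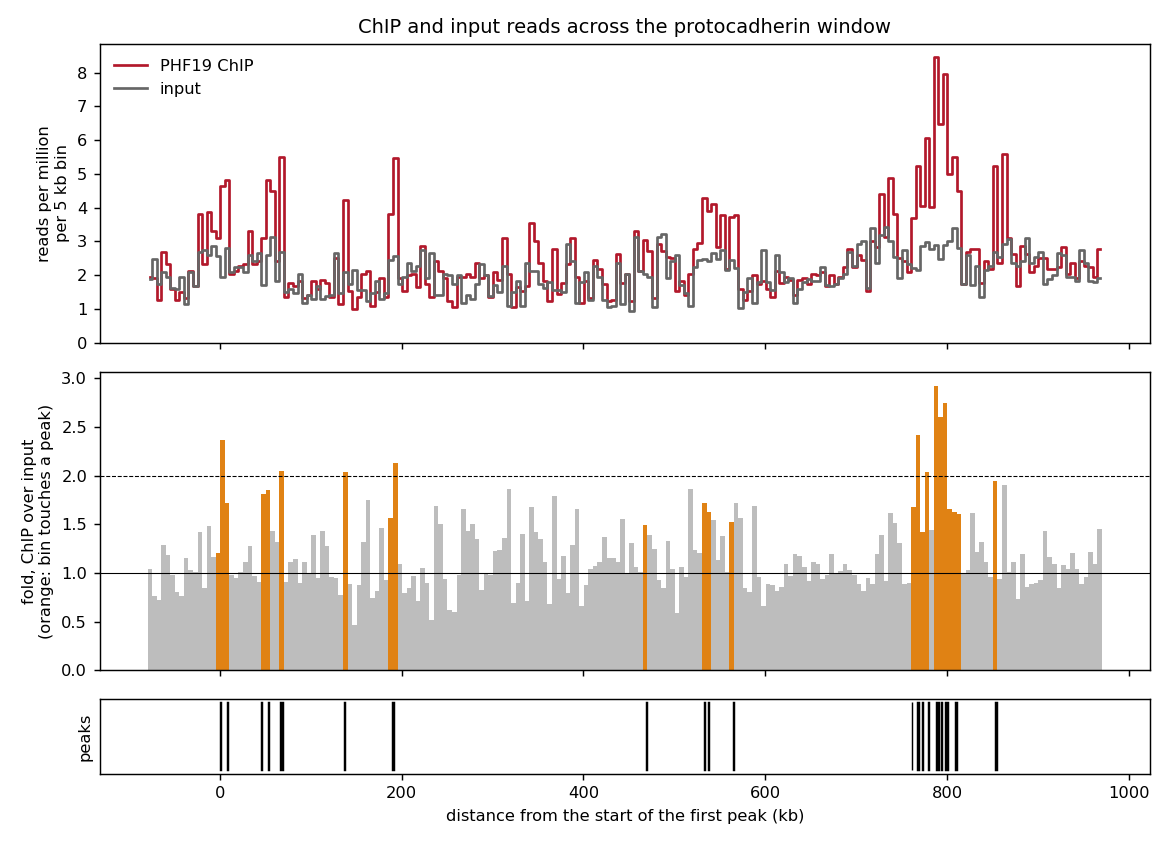
ChIP and input reads per 1000000 distinct reads of the library (RPM) in 5 kb bins (top), their fold (middle, orange where a bin touches a peak, dashed line at a fold of 2) and the 20 peaks (bottom), against distance in kb from the start of the first peak. Cut at the 2 widest gaps, the peaks form 3 groups of 7, 4 and 9, and the highest bins lie in the last group.

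For description the peaks were divided into 3 groups by cutting at the 2 widest gaps, of 277 and 196 kb. The number of groups was set by this cut, and the groups were not matched to the 3 gene arrays. Group 1, at chromosome 18, 37079530 to 37271585, held 7 peaks over 192 kb. Group 2, at 37548891 to 37644887, held 4 peaks over 96 kb. Group 3, at 37840615 to 37934031, held 9 peaks over 93.4 kb. Peaks covered 5.86% of the span of group 1, 3.68% of group 2 and 17.6% of group 3. The pooled folds were 3.08 (2.58 to 3.69), 2.94 (2.10 to 4.17) and 3.29 (2.85 to 3.82), and their intervals overlapped. The groups thus differed in how closely the peaks were set, and a difference in fold between them was not tested.

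Spacing was uneven. The 19 gaps between neighbouring peaks ranged from 2.48 to 277 kb with a median of 8.18 kb. Of these, 10 gaps were at most 10 kb and 5 were over 50 kb. Joining peaks at gaps of at most 10 kb gave 10 runs, of which 6 were single peaks. The longest run, at 37840615 to 37890323, held 8 peaks over 49.7 kb, all of them in group 3. Its neighbouring peaks were 2.48 to 8.18 kb apart, and the ninth peak of the group followed after a gap of 41.9 kb. In group 1 the median gap was 24.5 kb, and in group 2 it was 26.6 kb. The gaps of the whole window had an SD of 1.68 times their mean, which describes clumped rather than even spacing.

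The strongest peak was peak 16 (numbered in order along the chromosome), at 37867731 to 37870743, which was also the widest at 3013 bp. It had 187 reads in the ChIP and 47 in the input, or 8.52 and 1.92 RPM. This was a fold of 4.44 (3.21 to 6.25). Its authors' score of 434.13 ranked 350 in the list. It was the one peak whose interval lay above the pooled fold of the 20. The score is the authors' own value per peak, used here only to rank.

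Peak 18, at 37877361 to 37880321, came next by score and was 2961 bp wide. It had 124 reads in the ChIP and 40 in the input, giving a fold of 3.46 (2.40 to 5.07). Between both lay the small peak 17, at 37873224 to 37874168, with 36 reads in the ChIP, 12 in the input and a fold of 3.35 (1.70 to 7.07). These 3 peaks stood in the densest stretch of the window, and the 3 bins of 5 kb with the largest fold touched them. The bin from 37865001 had 186 reads in the ChIP and 71 in the input, giving a fold of 2.92 (2.21 to 3.90). The fold was 2.75 (2.08 to 3.68) in the bin from 37875001 and 2.60 (1.91 to 3.57) in that from 37870001.

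Peak 7, at 37269237 to 37271585, closed group 1 and was the third by score. It had 111 reads in the ChIP and 34 in the input, giving a fold of 3.64 (2.46 to 5.52). Peak 5, at 37146136 to 37148537, was 2402 bp wide and had 100 reads in the ChIP and 41 in the input, giving a fold of 2.72 (1.87 to 4.02). Peak 15, at 37858081 to 37859551, had 77 reads in the ChIP and 26 in the input, giving a fold of 3.30 (2.09 to 5.37). These 5 highest-scoring peaks had overlapping intervals, so their order by fold is not established by these reads.

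The largest fold came from the smallest peak and was poorly determined. Peak 11, at 37644398 to 37644887, was 490 bp wide and had 17 reads in the ChIP and 4 in the input. Its fold of 4.74 had an interval from 1.55 to 19.4. Peak 6, at 37216187 to 37217101, stood alone with gaps of 67.6 and 52.1 kb on its sides and had 35 reads in the ChIP and 9 in the input, giving a fold of 4.34 (2.04 to 10.3). Peaks 8 and 12 were both 893 bp wide. Peak 8, at 37548891 to 37549783, had 30 reads in the ChIP and 10 in the input, giving a fold of 3.35 (1.59 to 7.68). Peak 12, at 37840615 to 37841507, had 30 and 9 such reads and a fold of 3.72 (1.72 to 8.91). The order of these narrow peaks thus rests on 4 to 10 input reads each.

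The lowest folds were found at peaks 4, 10 and 19. Peak 4, at 37132342 to 37133510, had 53 reads in the ChIP and 28 in the input, giving a fold of 2.11 (1.31 to 3.47). Peak 10, at 37616783 to 37617804, had 36 and 18 such reads and a fold of 2.23 (1.23 to 4.17). Peak 19, at 37888276 to 37890323, had 83 and 38 such reads and a fold of 2.44 (1.64 to 3.68). Peak 20, at 37932261 to 37934031, was close to it with 70 and 32 reads and a fold of 2.44 (1.58 to 3.83). These 4 had more input per kb than the median of the 20 peaks, at 2.66, 1.96, 2.06 and 2.01 times the chromosome median against 1.60. A fold is a ratio to that same input, so these values share a term.

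**Figure D2:**
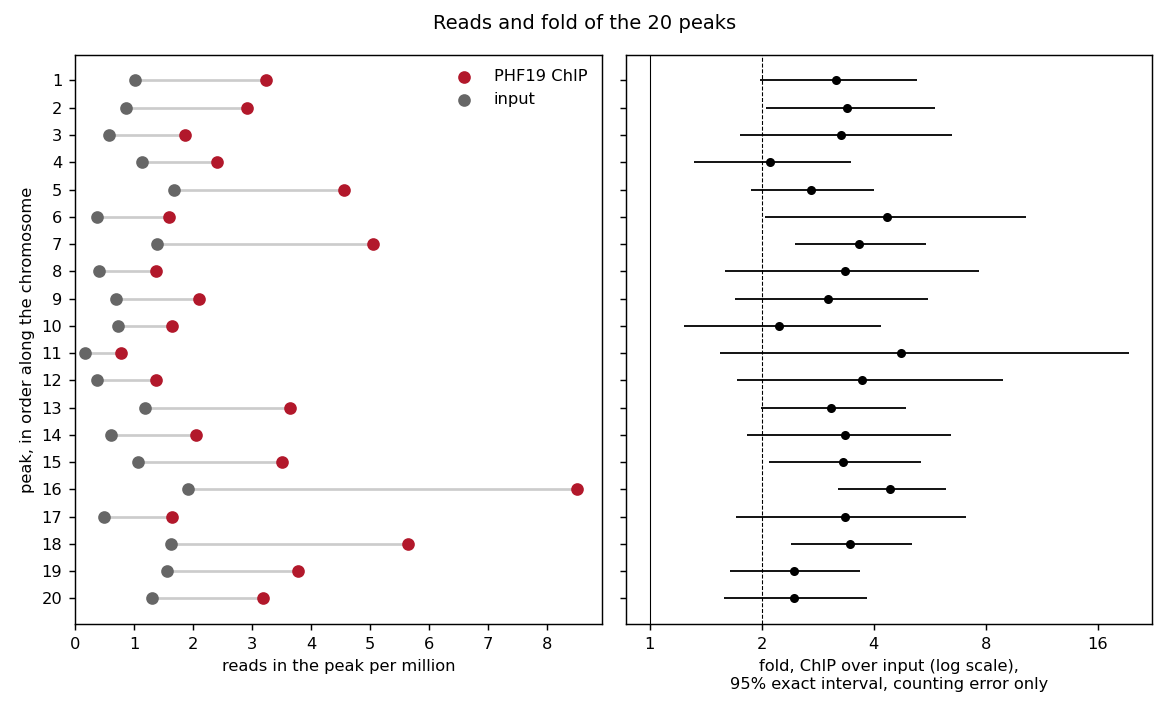
RPM in each of the 20 peaks for the ChIP (red) and the input (grey) on the left, and the fold with its exact 95% interval on a log axis on the right, in order along the chromosome. The ChIP lies above the input in every peak, from a fold of 2.11 at peak 4 to 4.74 at peak 11, and the intervals overlap widely.

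The remaining peaks lay between these extremes. Peaks 1, 2, 3, 9, 13 and 14 held 41 to 80 ChIP reads and 14 to 29 input reads, with folds from 3.02 at peak 9 to 3.40 at peak 2. In width the 20 peaks resembled the list. Their median was 1361.5 bp against 1425 bp for all other peaks, and 5 were under 1000 bp wide (25%, against 26.2% of the list). By authors' score they sat lower. Among the highest-scoring 25% of the list were 2 of the 20, peaks 16 and 18, while 7 were among the lowest-scoring 25%.

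Just outside the window, the nearest peaks were 227 kb before peak 1 and 217 kb after peak 20. The former, at 36851161 to 36852542, had 64 reads in the ChIP and 17 in the input, giving a fold of 4.20 (2.43 to 7.65). The latter, at 38150932 to 38151909, had 32 and 7 such reads and a fold of 5.10 (2.21 to 13.7). Both edges of the window therefore lay in stretches without peaks. Before peak 1 the window had a fold of 1.06 (0.961 to 1.17), and after peak 20 it had 1.08 (0.998 to 1.17).

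Enrichment between the peaks was slight. The bases of the window outside peaks had 10110 reads in the ChIP and 10209 in the input, giving a fold of 1.10 (1.07 to 1.14). In 83 windows of the same length laid end to end along chromosome 18, this was the highest fold outside peaks. The median of these windows was 0.979 and the second highest value 1.06. The second largest number of peaks in such a window was 6. The protocadherin window was chosen by its number of peaks in this same ChIP library, so its place in both orders is no separate support. Its median 5 kb bin held 50 input reads, against 46 at the median of these windows, and the part of input in this order was not tested. Between peaks of group 3 the fold was 1.34 (1.22 to 1.47), in group 2 it was 1.16 (1.06 to 1.26) and in group 1 it was 1.09 (1.02 to 1.17). Thus the spaces within the densest group had a higher fold than those of group 1, by intervals that do not overlap. These spaces differ in distance to a peak, as 7 of 8 gaps in group 3 but 2 of 6 in group 1 were at most 10 kb. Within 1 kb of a peak the fold was not higher in group 3, at 1.28 (1.08 to 1.53) against 1.52 (1.24 to 1.87) in group 1.

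Short gaps tended to have a higher fold than long ones. In the 10 gaps of at most 10 kb the fold ranged from 1.12 to 1.92, and the interval lay above 1 in 5 of them. In the 9 longer gaps it ranged from 1.01 to 1.37, with 4 intervals above 1. The highest value, 1.92 (1.32 to 2.82), was that of the 3.19 kb gap between peaks 17 and 18, with 79 ChIP and 46 input reads. The 277 kb gap between groups 1 and 2 had 2415 reads in the ChIP and 2491 in the input, giving a fold of 1.08 (1.02 to 1.14). The 196 kb gap between groups 2 and 3 had 1.05 (0.988 to 1.12).

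In bins of 5 kb, the highest folds lay at the peaks, which is no separate support because peaks and bins come from the same ChIP library. All 210 bins of the window had at least 20 reads, and 9 of them (4.29%) reached a fold of 2, against 0.654% of 512759 such bins in the genome. These 9 bins all touched a peak. At a fold of 1.5 there were 38 bins (18.1%, against 4.32% of the genome), and at a fold of 3 there were 0, against 0.152%. Another 15 bins touched a peak without reaching a fold of 2, and the 186 bins away from peaks ranged from 0.463 to 1.91 with a median of 1.04. Small peaks fill little of a 5 kb bin, so their enrichment is diluted in it.

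Around the peak centres, the ChIP signal dropped steeply to near the input at about 2 kb and was higher again farther out. In the 250 bp just after the centre the ChIP held 0.558 and the input 0.149 RPM per peak. At 2125 bp before the centre the values were 0.105 and 0.0776, and at 2125 bp after it they were 0.116 and 0.108. Beyond that it was 0.205 against 0.112 RPM at 4125 bp before the centre and 0.225 against 0.108 at 4125 bp after it. Of the 19 gaps 4 were at most 5 kb, so neighbouring peaks fall within this range. Taking each base by its distance to the nearest of the 20 peaks, the fold was 1.34 (1.19 to 1.51) within 1 kb of a peak and 1.25 (1.09 to 1.43) from 1 to 2 kb. From 2 to 5 kb away it was 1.19 (1.07 to 1.31), and from 5 to 10 kb away 1.20 (1.10 to 1.31). In group 1 it was 1.52 (1.24 to 1.87) within 1 kb, 1.03 (0.814 to 1.29) from 1 to 2 kb, 1.03 (0.872 to 1.21) from 2 to 5 kb and 1.03 (0.8999 to 1.18) from 5 to 10 kb. In group 3 the values over the same distances were 1.28 (1.08 to 1.53), 1.40 (1.13 to 1.73), 1.33 (1.13 to 1.56) and 1.27 (1.06 to 1.52). In group 2, with the smallest share of its span in peaks, they were 1.20 (0.911 to 1.59), 1.41 (1.02 to 1.94), 1.23 (0.998 to 1.52) and 1.39 (1.19 to 1.63). Beyond 1 kb the group 1 intervals thus all included 1 and those of group 3 all lay above it. Those of group 2 lay above 1 from 1 to 2 kb and from 5 to 10 kb. The group 3 ring from 5 to 10 kb, with 271 ChIP and 238 input reads, took in much of the bin from 37940001, which had 123 and 72. The difference between the groups was not tested.

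**Figure D3:**
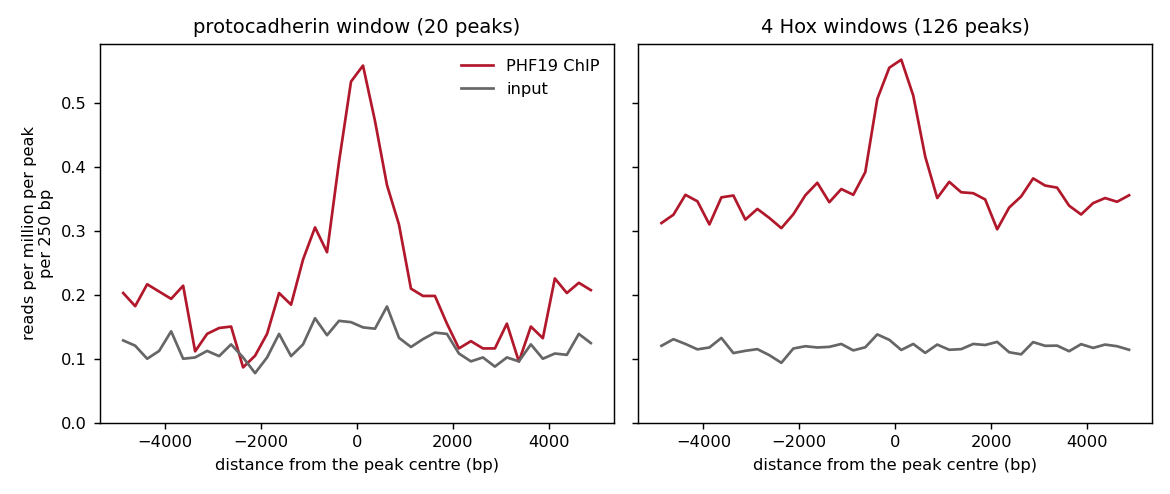
Mean ChIP (red) and input (grey) RPM per peak in 250 bp steps, against distance from the peak centre in bp, for the 20 protocadherin peaks and for 126 peaks of the 4 Hox windows. Both sets reach a similar height at the centre (0.558 and 0.567). Around the protocadherin peaks the ChIP falls to near the input at about 2 kb and is higher again beyond it (0.205 against 0.112 at 4125 bp before the centre), while around the Hox peaks it stays above the input throughout. In both sets neighbouring peaks fall within the plotted range.

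Within the peaks, ChIP reads were gathered in a short stretch. The densest 250 bp of each peak held 13 to 27 ChIP reads, from 13.9% of the reads of the wide peak 16 to 76.5% of those of the narrow peak 11. The most reads, 27, stood in peak 15 at 37858501 to 37858750, where the input held 6. In peak 6 the densest stretch, at 37216527 to 37216776, held 17 of its 35 ChIP reads and 2 input reads. In the wide peak 18 it held 19 of 124 ChIP reads and 11 input reads. Each stretch was picked for its ChIP reads, so its excess over input is a description.

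The 4 other windows of 1 Mb used for comparison are known to hold the HoxA, HoxB, HoxC and HoxD clusters, transcription factor genes that are classic Polycomb targets. Their peaks spanned 52086004 to 52248081 of chromosome 6 (35 peaks), 96004497 to 96955568 of chromosome 11 (32), 102183417 to 102930899 of chromosome 15 (33) and 74456682 to 74564487 of chromosome 2 (26). The median gap of 8.18 kb in the protocadherin window compared with 0.529, 1.90, 2.63 and 1.11 kb in them. Peaks were 1734, 1951, 1483 and 1745 bp wide at the median there, against 1361.5 bp. Pooled folds were 4.21 (3.92 to 4.53), 3.68 (3.44 to 3.94), 4.24 (3.90 to 4.61) and 4.56 (4.17 to 4.99), against 3.18 (2.86 to 3.54). The interval of the protocadherin peaks lay below those of HoxA, HoxC and HoxD and overlapped that of HoxB. Within 1 kb of the Hox peaks the fold was 2.002 (1.89 to 2.13), against 1.34 here and 1.63 (1.61 to 1.64) around all other peaks of the list. The Hox peaks were more closely set, so these flanks are not alike. From first to last peak, the fold between peaks was 1.11 (1.08 to 1.15) in the protocadherin window. It was much alike in HoxB, at 1.11 (1.08 to 1.14), and HoxC, at 1.13 (1.10 to 1.17). In HoxA it was 1.65 (1.51 to 1.80) and in HoxD 2.20 (1.97 to 2.46). The longest gaps in the HoxB and HoxC windows were 643 and 370 kb, so some of their peaks may lie away from the clusters. All 5 windows were chosen for their peaks, so these differences were not tested.

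**Figure D4:**
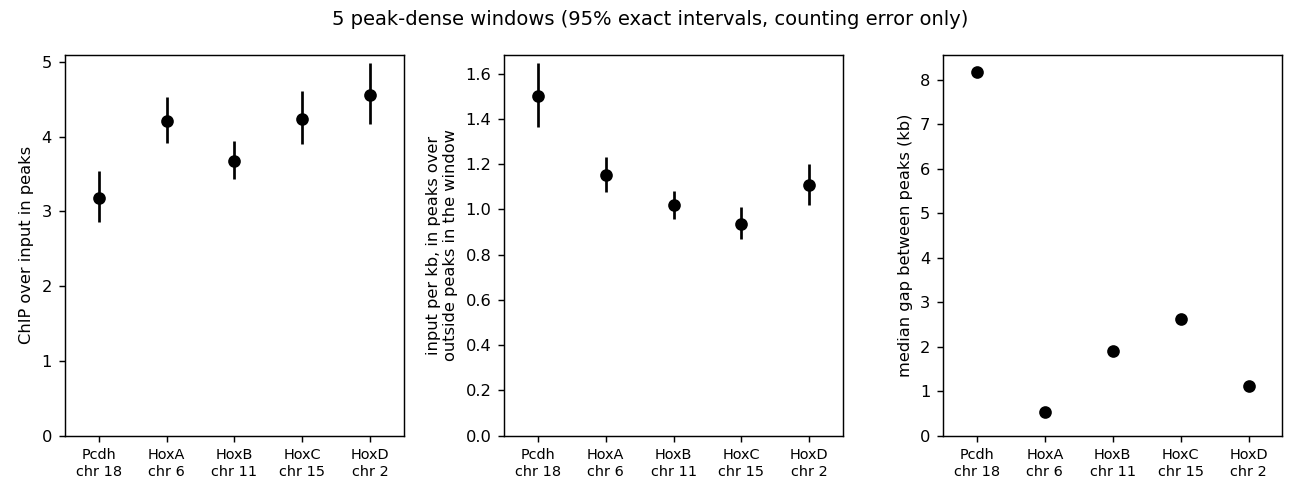
Pooled fold in peaks (left), input reads per kb in peaks over those outside peaks in the same window (middle) and median gap between peaks in kb (right) for the protocadherin window and the 4 Hox windows. Bars are exact 95% intervals. The protocadherin window has the lowest fold, 3.18, the highest input ratio, 1.5, and the widest median gap, 8.18 kb, of the 5.

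Input density was not itself a criterion for the window, which was chosen by its number of peaks. The labels do not say whether the input served in peak calling, so the choice may not be independent of it. Across the window the median 5 kb bin held 1.11 times the input of chromosome 18, and 19 of the 83 windows along the chromosome had a higher median. The 210 bins ranged from 0.511 to 1.87 times the chromosome median, so no bin was under 0.5 or at 2 or more. The bin with the fewest input reads, from 37530001, held 23 input and 27 ChIP reads. The bins from 37650001 and 37505001 followed with 25 and 26 input reads. The most input reads, 84, lay in the bin from 37810001 with 69 ChIP reads and a fold of 0.916. The bins from 37795001 and 37885001 held 83 each, with folds of 0.887 and 1.63. The bins with the most input reads thus had folds on both sides of 1.

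Inside the peaks, however, the input was raised. It held 15.03 reads per kb in the 20 peaks and 10.02 in the rest of the window, a ratio of 1.5 (1.36 to 1.65). In the HoxA, HoxB, HoxC and HoxD windows the same ratio was 1.15 (1.08 to 1.23), 1.02 (0.958 to 1.08), 0.938 (0.868 to 1.01) and 1.11 (1.02 to 1.20). The interval of the protocadherin peaks lay above those of all 4 Hox windows. This comparison was chosen after the values were seen, and the difference was not tested. Input density was at or above the chromosome median in 19 of the 20 peaks, the exception being peak 11 at 0.907, and in 78.4% of the whole list. The median was 1.60 times the chromosome median, against 1.29 for all other peaks. Peaks 4, 19 and 20 reached 2 times the median, 3 of 20, where 5.4% of the list did. At 1.5 times the median there were 13 of 20, where the list had 30.1%.

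Input also varied between the groups. The median 5 kb bin held 1, 1.31 and 1.42 times the chromosome median over groups 1, 2 and 3. It was 0.978 in the gap between groups 1 and 2 and 1.04 between groups 2 and 3. Group 3, with the most closely set peaks, therefore had the highest median input of the 3 groups. The highest single bin, at 1.87 times the chromosome median, lay in the peak-free gap between groups 2 and 3, against at most 1.84 in group 3. The part of input in the number of peaks in group 3 was not tested.

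Strand balance was not used in choosing the peaks. Reads from both strands were about equally frequent in the ChIP at the 20 peaks, with 662 plus and 674 minus reads, or 49.6% plus (46.8 to 52.3). In the input they were 255 and 214, or 54.4% plus (49.7 to 58.9). The difference between the libraries did not pass Fisher's exact test (two-sided p = 0.0766, adjusted p = 0.344 over 9 comparisons). Against the peaks of each Hox window, the adjusted p was at least 0.830 in the ChIP and at least 0.160 in the input. The ChIP shares of those windows were 49.7%, 50.3%, 50.1% and 48.8%. Over the whole of chromosome 18, 53.8% of ChIP and 53.1% of input reads were on the plus strand, and the former lies above the ChIP interval of the peaks.

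Single peaks ranged from 37.1% plus at peak 6 to 60.0% at peak 8 in the ChIP. In the input they ranged from 25% at peak 11, which had 4 reads, to 70.0% at peak 8, which had 10. Each peak's plus reads were set against the share of the whole chromosome by an exact binomial test, with Benjamini-Hochberg adjustment over the list. Out of balance therefore means departing from that share, 53.8% in the ChIP of chromosome 18, rather than from 50%. The median ChIP share of all other peaks was 50%. Of the 20 peaks 0 were out of balance in the ChIP, where 1.04% of the list were. In the input 0 were, where 0.116% of the list were. At an unadjusted p under 0.05 the counts were also 0 and 0, against 10.7% and 5.28% of the list. The lowest unadjusted p in the ChIP was 0.0611, at peak 6. With 17 to 187 ChIP reads a peak, a small skew would not be detectable.

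**Figure D5:**
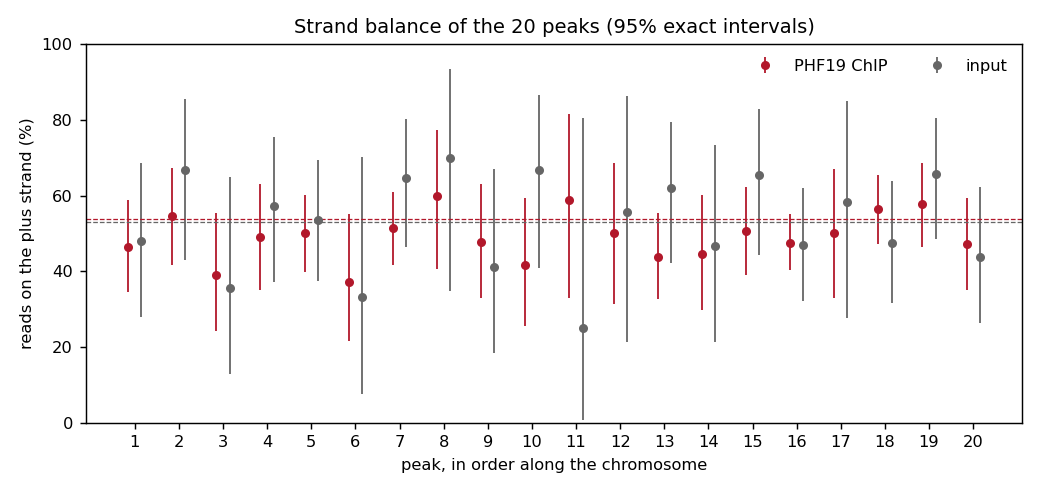
Share of reads on the plus strand in percent for each of the 20 peaks, ChIP in red and input in grey, with exact 95% intervals; dashed lines give the shares over chromosome 18, 53.8% and 53.1%. ChIP shares range from 37.1% to 60.0%, and their intervals include the line of the chromosome in each peak.

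The reads of the 2 strands were offset along the chromosome. In the 20 peaks, 5′ ends of ChIP reads on the minus strand lay on average 151 ± 29.9 bp (SE over reads) beyond those on the plus strand. In the input the offset was 87.3 ± 51.4 bp, and in the ChIP of the Hox windows it was 123 ± 18.7 bp. The offset of the 20 peaks in the ChIP differed from each of the other values by less than the sum of their errors.

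Duplicate reads made up a small part of the peaks. Removing repeated positions took away 4.43% of the ChIP reads and 3.70% of the input reads in the 20 peaks, against 5.39% and 3.76% over the whole list. With duplicates kept the pooled fold was 3.17. By peak, between 0% at peaks 4 and 8 and 8.89% at peak 3 of the ChIP reads were removed.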

How the data were processed

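The authors deposited aligned reads of 1 PHF19 ChIP and 1 input library, 1 line per read with start, end and strand, with Bowtie and the mm8 build named per the submitters' processing notes. The Bowtie version, the handling of multiply matching reads and the peak caller's settings were not stated in these sources. The deposited peak list carries a score per peak and names MACS, per the file headers. Libraries were amplified for 14 cycles and size-selected at 150 to 400 bp with adaptors, per the labels' protocols. All reads were 42 bases long. Counts made here kept 1 read per position and strand, leaving 21957101 of 23965625 ChIP and 24496988 of 26433784 input reads. 5′ ends were moved inwards by 54 bp, from the 109 bp strand lag of the input. The ChIP lag of 42 bp equalled the read length and gave no fragment length. Folds, in peaks, gaps and 5 kb bins with at least 20 reads, were scaled by library totals.

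Strand tests were exact binomial and Fisher's exact tests with Benjamini-Hochberg adjustment. The binomial test was checked on reads simulated at the chromosome shares, which cannot show whether those shares suit the peaks. Every peak could be named. Full values are given for those extreme in score, width, fold or input. The window, members and comparison windows were chosen with earlier results of these data known. The input ratio, the distance rings and the densest stretches were added after the values were seen. Other settings were tried for duplicates, the shift, scaling, bin size, thresholds and the peaks used. Sequences were not used here. Python 3.11.15, numpy 2.4.6, scipy 1.17.1 and matplotlib 3.10.9 were used.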

Additional observations from a re-analysis of the deposited data

How the results depend on the processing

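Of the alternatives tried, 30 stayed within 1.5 times (counts) or within the counting interval (folds and shares), 13 moved beyond it and 0 reversed. The pooled fold of 3.18 became 2.46 with peaks widened by 500 bp. Peaks past the fold threshold numbered 3 at a fold of 4. Window bins past it, 9 in number, were 38 at a fold of 1.5 and 0 at a fold of 3. In bins of 1 kb they were 75 among 479 with at least 20 reads, a minimum that favours high counts. This was 15.7%, against 6.54% of such bins in the genome. In bins of 10 kb they were 3 (2.86%, against 0.357% of the genome). Members numbered 8 in the top-scoring 50% of the list and 2 in its top-scoring 25%. The 10 runs became 16 at gaps of at most 5 kb and 6 at gaps of at most 50 kb. The input density of the window, 1.11, was 1.09 with duplicates kept. Raised input was found in 13 members at 1.5 times the median (30.1% of the list) and 0 at 3 times. Without the 3 members of raised input, chosen after seeing the data, the pooled fold was 3.40. With 1 library per group, no replicate could be left out, and folds of narrow peaks are limited by input counts as low as 4.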

Other observations

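Away from the peaks, 17 of the 186 bins of 5 kb (9.14%) had a fold of at least 1.5, against 4.32% of all bins in the genome. Of these 17, 7 lay in the 277 kb gap between groups 1 and 2, among 54 bins, and 5 in the gap between groups 2 and 3, among 39. Their median input was 35 reads, against 48 in all bins away from peaks, so low input counts moved with these folds, and their part in the result was not tested. The interval lay above 1 in 15 of the 17, which were picked for their fold, and in 20 of all 186 bins away from peaks. The genome share of bins with such an interval is not given here, so these counts have no background. The bin from 37940001, just beyond peak 20, had 123 reads in the ChIP and 72 in the input, giving a fold of 1.91 (1.41 to 2.59), and its input was 1.60 times the chromosome median. In each of the bins from 37395001 and 37595001 there were 45 ChIP reads against 27 from the input, or a fold of 1.86 (1.13 to 3.12).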
